A study of Mus musculus with 16 samples.

Results

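Genes of 10 chemokines that epithelial cells can make were followed by name through 16 cultures of differentiated mouse jejunal enteroids: Ccl6, Ccl9, Ccl20, Ccl25, Ccl28, Cxcl1, Cxcl5, Cxcl10, Cxcl16 and Cx3cl1. All 10 were found among the 54532 genes of the count table, and all 10 are accounted for here. Enteroids are closed epithelial structures grown from crypts, with no immune cells or stroma added. The cultures formed 4 groups of 4, and a figure legend of the study states that each group came from 4 mice. MYO5BΔIEC enteroids carried Vil-CreERT2;Myo5b-flox/flox, in which the villin promoter drives an inducible Cre in epithelium, and were given the PBS vehicle. MYO5B(G519R) enteroids carried Vil-CreERT2;Myo5b-flox/G519R, so that Cre leaves only the mutant allele, and had no further treatment on their label. The treated MYO5BΔIEC enteroids received Compound-1, an agonist that prefers the lysophosphatidic acid receptor LPAR5, at 100 nM for 2 days in differentiation medium. Those 3 groups received 4-OH-tamoxifen at 1 µM for 24 h, and the control group carries only the genotype label "Control" with no treatment. The sources differ on the control: the methods describe uninduced Vil1-CreERT2;Myo5b flox/flox cultures given ethanol, and a legend calls the controls healthy littermates. Their genotype and exposure are therefore uncertain, and if they had no tamoxifen, exposure to it and loss of MYO5B cannot be told apart in any comparison with control. Library totals ran from 27804968 to 40101729 counts, and values are given as CPM, counts scaled to library size, unless FPKM, which is also scaled to gene length, is named.

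Chemokines are small secreted proteins that draw leukocytes along a gradient by binding G protein-coupled receptors. In the small intestine some are made at all times and place lymphocytes in the mucosa (Ccl25, Ccl28), while others are made on injury or infection and call in neutrophils, monocytes or T cells (Cxcl1, Cxcl5, Ccl20, Cxcl10). Cxcl16 and Cx3cl1 are unusual in being made as membrane proteins on a mucin-like stalk, from which the metalloproteases ADAM10 and ADAM17 release the chemokine. Genes of the inflammatory members are commonly controlled by NF-κB and by interferon.

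In MYO5BΔIEC enteroids and in MYO5B(G519R) enteroids Ccl25, Ccl28, Ccl6, Ccl9 and Ccl20 were lower than in control, and the membrane-anchored Cxcl16 and Cx3cl1 were higher. In MYO5BΔIEC enteroids 2 members rose and 5 fell among the 9 that could be tested, where 13.5% of all 17951 genes tested were called higher and 13.8% lower by edgeR's quasi-likelihood F test at an adjusted p of 0.05. In MYO5B(G519R) enteroids 2 rose and 6 fell of 9, where 13.1% of genes were called higher and 13.7% lower. The ranges of the mutant and control cultures did not overlap for 4 members in MYO5BΔIEC (26.9% of all genes), and MYO5B(G519R) likewise gave 4 (27.4%). Compound-1-treated enteroids against control had 3 members higher (15.7% of genes), 3 lower (13.7%) and 5 without overlap (27.9%). Cxcl1, among the 3 higher, passed the count filter only through the treated group. The 3 comparisons with control share the same 4 control cultures.

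Myo5b itself, the targeted gene, was read at 160, 230, 191 and 176 CPM in the 4 control cultures and at 135, 109, 169 and 101 CPM in MYO5BΔIEC. Control culture 1 lay below MYO5BΔIEC culture 3, so the groups overlapped. The fitted log2 difference was -0.55 ± 0.19 (SE) with an adjusted p of 0.0503, and in MYO5B(G519R) enteroids it was -0.33 ± 0.14 with an adjusted p of 0.109. In the treated cultures Myo5b was lower than in control (log2 difference -0.77 ± 0.19, adjusted p = 0.0146). Counts over the whole gene include exons outside any deleted segment, so they check the induction only in part.

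One library stood apart from its group. Control culture 1 had a median correlation of log2 CPM of 0.954 with its own group, while the other controls had 0.982 to 0.984, and its share of mitochondrially encoded reads was 6.41%, against 9.07% to 10.4% in the others. That share was 3.79% to 6.63% in the mutant and treated cultures, so it differed between control and the rest along with the chemokines, and its part in their differences was not tested. Compound-1-treated culture 3, the deepest library, had a median correlation of 0.966 with its group, close to the 0.97 to 0.974 of the other treated cultures, but it held the extreme value of several chemokines. Values without control culture 1 or treated culture 3 are given where they end a call or move a value by over 1.5 times, and for some others. Without control culture 1 the calls in MYO5BΔIEC were the same 2 higher and the same 5 lower, and in MYO5B(G519R) they were 2 higher and 5 lower, with Cxcl10 lost, while the genes called overall went from 4910 to 7474 and from 4778 to 8146. Leaving out another culture lowered the member counts: in MYO5BΔIEC 2 were lower without control culture 2 or 4 or MYO5BΔIEC culture 2, 3 without control culture 3 or MYO5BΔIEC culture 1 or 3, and 4 without MYO5BΔIEC culture 4.

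**Figure D1:**
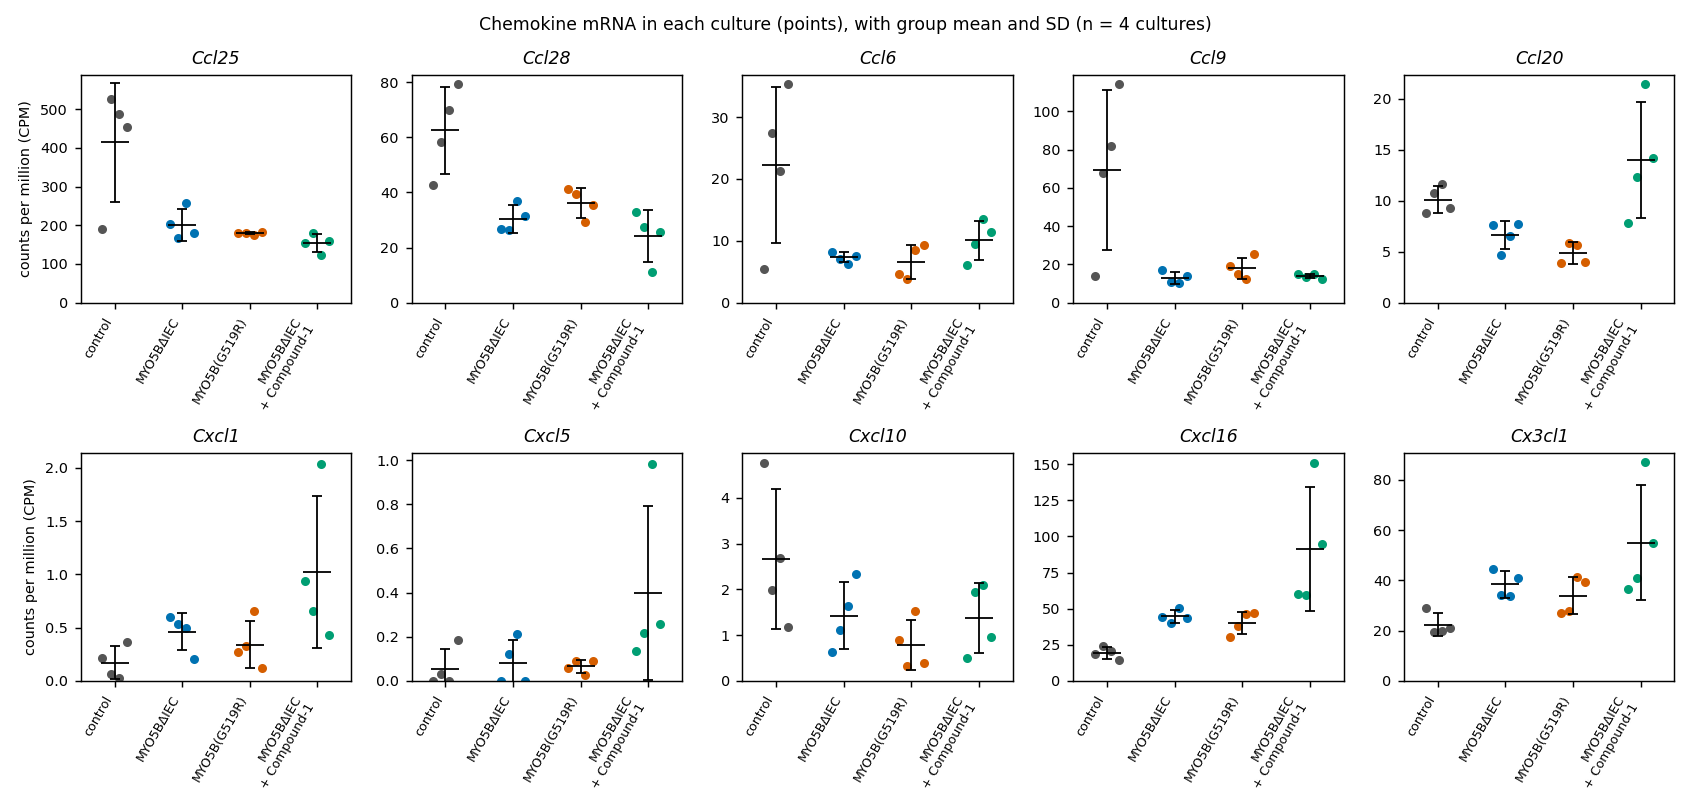
CPM (y axis, linear, from 0) of each of the 10 chemokines in each culture (points), for the 4 groups on the x axis; within a group the points run from replicate 1 to 4, and the bar shows the mean with 1 SD (n = 4), cut off at 0. Control culture 1, the leftmost grey point, is the lowest control for Ccl25, Ccl28, Ccl6 and Ccl9, and treated culture 3 is the highest green point for Cxcl16, Cx3cl1, Ccl20, Cxcl1 and Cxcl5.

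Per gene length, in control enteroids Ccl25 led at 53.9 ± 19.7 FPKM (SD, n = 4), followed by Ccl9 at 22.1 ± 13.2, Ccl28 at 12.5 ± 3.04, Ccl6 at 12 ± 6.75, Ccl20 at 6.92 ± 0.871, Cxcl16 at 6.32 ± 1.33 and Cx3cl1 at 5.56 ± 1.21 FPKM. Cxcl10 stood at 1.16 ± 0.682 FPKM, and Cxcl1 and Cxcl5 were at 0.0893 ± 0.08 and 0.0282 ± 0.0457 FPKM. Within that order Ccl28 and Ccl6 lay within each other's SD, as did Ccl20 and Cxcl16, and Cxcl16 and Cx3cl1. In Compound-1-treated enteroids the order of the mean levels was different: Cxcl16 at 29.9 ± 14.6 FPKM stood above Ccl25 at 20.3 ± 2.79, Cx3cl1 reached 13.9 ± 5.99 and Ccl20 9.72 ± 4.14, while Ccl9 was at 4.53 ± 0.407 FPKM. The SD of treated Cxcl16 spans the Ccl25 level, so these 2 do not differ beyond their spread. Gene length here is that of all annotated exon bases, 7445 for Ccl25 and 3021 for Cxcl16. The order between genes rests on these lengths and is not a level per transcript.

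**Figure D2:**
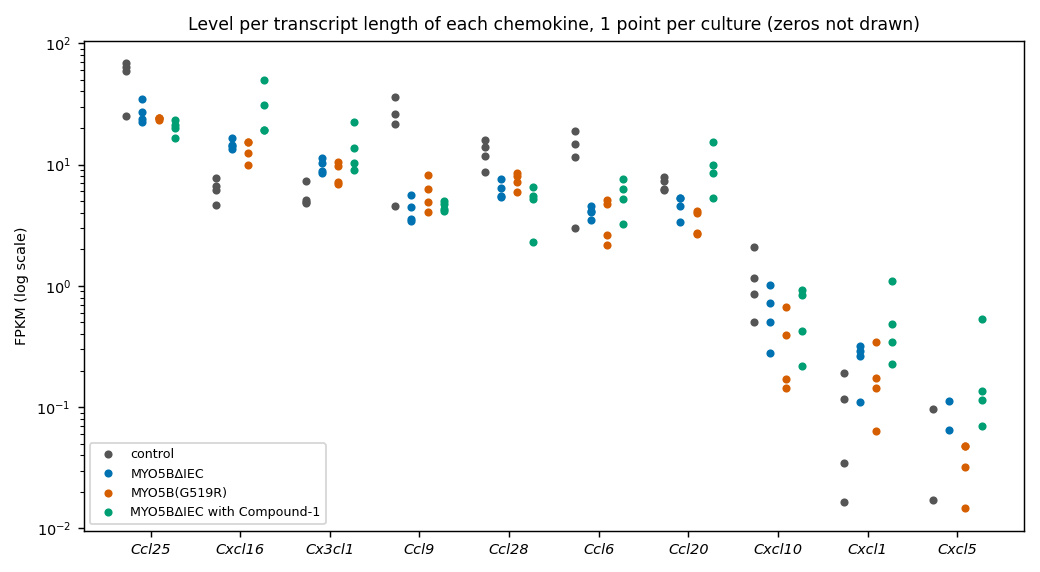
FPKM (y axis, log scale) of each chemokine in each culture, with the genes on the x axis ordered by their mean over the groups and 1 colour per group; values of 0 are not drawn. Ccl25 is the most abundant chemokine in every control culture, and Cxcl16 reaches 50.1 FPKM in treated culture 3.

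Ccl25 (ENSMUSG00000023235, GRCm38 chromosome 8, 4325210 to 4360020, plus strand) encodes the ligand of CCR9, which brings T cells and IgA plasma cells into the small intestine. It was read at 189, 527, 486 and 453 CPM in the controls, at 203, 166, 258 and 179 CPM in MYO5BΔIEC, and at 181, 179, 175 and 182 CPM in MYO5B(G519R). Control cultures 2, 3 and 4 were above every mutant culture and control culture 1 was among the MYO5BΔIEC values. Ccl25 fell in MYO5BΔIEC (log2 difference -1.03, SE 0.289, adjusted p = 0.0233) and in MYO5B(G519R) (-1.21, SE 0.269, adjusted p = 0.0104). The call in MYO5B(G519R) remained with each culture left out, whereas in MYO5BΔIEC it was lost without control culture 2, 3 or 4 or MYO5BΔIEC culture 1, 2 or 4, at adjusted p-values of 0.058 to 0.075, and with limma on log2(FPKM + 1) (0.0552) or log2(FPKM + 0.1) (0.0524) and the replicate block (0.0531). Without control culture 1 the log2 differences were -1.27 and -1.42. The MYO5B(G519R) cultures were nearly alike, with an SD of 2.84 CPM around 179. Elavl1 on the opposite strand shares 2.74% of the exon bases of Ccl25 and was not called in either genotype (adjusted p = 0.621 and 0.52).

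Ccl28 (ENSMUSG00000074715, chromosome 13, 119623819 to 119654359, plus strand) encodes the mucosal ligand of CCR10 and CCR3. The control cultures held 42.6, 58.3, 69.8 and 79.3 CPM, the MYO5BΔIEC cultures 26.6, 26.3, 37 and 31.5 CPM, and the MYO5B(G519R) cultures 41.2, 39.3, 29.1 and 35.4 CPM. Every mutant culture was below every control. Ccl28 fell in MYO5BΔIEC (log2 difference -1.04, SE 0.2, adjusted p = 0.00485) and in MYO5B(G519R) (-0.79, SE 0.191, adjusted p = 0.0149). Both calls remained with each of the 8 cultures of their comparison left out in turn. Of the homeostatic pair, this gene had the smaller spread between controls.

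Ccl6 and Ccl9 encode closely related ligands of CCR1 that attract monocytes and myeloid cells. The genes are neighbors on the minus strand of chromosome 11, with Ccl9 (ENSMUSG00000019122) at 83572919 to 83578636 and Ccl6 (ENSMUSG00000018927) at 83587882 to 83593087. Their annotated transcripts share no identical run of 31 bases. In the 250 bases before their starts (RefSeq, GRCm38.p6) the longest run in common is 13 bases, marked in capitals below, and 5 of 32851 upstream sequences hold it on either strand (0.0152%). These include Ccl6 and Ccl9 themselves, from which the run was picked, and 3 hold it on the same strand. No conclusion is drawn from its rarity. The stretches lie at chr11:83593106-83593165 and chr11:83578637-83578696, and both are shown on the minus strand.
Ccl6: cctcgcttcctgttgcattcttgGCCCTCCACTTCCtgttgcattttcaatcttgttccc
Ccl9: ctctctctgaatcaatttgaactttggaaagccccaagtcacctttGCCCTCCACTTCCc

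Ccl9 was read at 13.9, 68, 81.8 and 114 CPM in the controls, at 17.2, 10.7, 10.5 and 13.9 CPM in MYO5BΔIEC and at 19, 15.1, 12.4 and 25.3 CPM in MYO5B(G519R). Control cultures 2, 3 and 4 were far above all mutant cultures, while control culture 1 was level with them. Ccl9 had the largest fitted decrease of the members, with log2 differences of -2.40 in MYO5BΔIEC (SE 0.49, adjusted p = 0.00613) and -1.95 in MYO5B(G519R) (SE 0.506, adjusted p = 0.0192). The first call remained with each culture left out. The second was lost without control culture 3 or 4 or MYO5B(G519R) culture 2 or 3, at adjusted p-values of 0.0507 to 0.063, and with limma on FPKM at either pseudocount (0.0704 and 0.0694). Without control culture 1 the log2 differences of Ccl9 were -2.74 and -2.27.

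Ccl6 followed the same pattern at a lower level, with 5.45, 27.4, 21.2 and 35.3 CPM in the controls, 8.27, 7.13, 6.3 and 7.59 CPM in MYO5BΔIEC and 4.69, 3.88, 8.54 and 9.35 CPM in MYO5B(G519R). Again control culture 1 lay among the mutant cultures and the other controls lay above them. Ccl6 fell in MYO5BΔIEC (log2 difference -1.60, SE 0.43, adjusted p = 0.0199) and in MYO5B(G519R) (-1.75, SE 0.498, adjusted p = 0.0276). In MYO5BΔIEC the call was lost without control culture 2 or 4 or MYO5BΔIEC culture 2 or 3 (adjusted p 0.0508 to 0.0639), and in MYO5B(G519R) it was lost without control culture 2, 3 or 4 or mutant culture 1, 2 or 3 (0.0549 to 0.0801). Limma on FPKM at either pseudocount also ended both calls (0.0784 and 0.0795 in MYO5BΔIEC, 0.0723 and 0.0718 in MYO5B(G519R)), as did the replicate block in MYO5BΔIEC (0.0672). Without control culture 1 the log2 differences were -1.92 and -2.05.

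Ccl20 (ENSMUSG00000026166, chromosome 1, 83116766 to 83119167, plus strand) encodes the ligand of CCR6, made by the epithelium over lymphoid follicles and on inflammation. It was read at 8.78, 10.8, 11.6 and 9.26 CPM in the controls, 7.58, 4.7, 6.55 and 7.71 CPM in MYO5BΔIEC, 3.85, 5.89, 5.66 and 3.95 CPM in MYO5B(G519R), and 7.77, 12.3, 21.5 and 14.2 CPM in the treated cultures. All mutant cultures without Compound-1 were below all controls, and every treated culture was above every untreated MYO5BΔIEC culture. Ccl20 fell in MYO5B(G519R) (log2 difference -1.06, SE 0.198, adjusted p = 0.00518), a call that remained with each culture left out. In MYO5BΔIEC it also fell (-0.60, SE 0.203, adjusted p = 0.0487). That call sat at the threshold and was lost without control culture 2, 3 or 4 or MYO5BΔIEC culture 1, 2 or 3 (adjusted p 0.0627 to 0.142), and it was also lost when the trend of expression on gene length was removed (log2 difference -0.44, adjusted p = 0.149), with DESeq2's size factors (0.0513), without a filter (0.0755), with all 16 cultures in 1 fit (0.0879) and with the replicate block (0.103).

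The neutrophil chemokines Cxcl1 and Cxcl5, ligands of CXCR2, were close to the detection limit. Cxcl1 (ENSMUSG00000029380, chromosome 5, 90891241 to 90893115, plus strand) had 7, 2, 1 and 10 counts in the controls, 20, 18, 14 and 7 counts in MYO5BΔIEC, and 9, 11, 24 and 4 counts in MYO5B(G519R). The treated cultures had 28, 21, 83 and 15 counts. The control counts overlapped with those of both untreated mutants, and neither difference passed the test (log2 1.43 ± 0.709, adjusted p = 0.159, and 1.00 ± 0.758, adjusted p = 0.359). The second value ran from 0.48 without MYO5B(G519R) culture 3 to 1.65 without control culture 4. All treated cultures were above all controls in CPM, and Cxcl1 was called higher in treated MYO5BΔIEC against control. Its log2 difference was 2.56 (SE 0.734, adjusted p = 0.0256). Of the controls only culture 4 reached 10 counts, so Cxcl1 passed the count filter through the treated group, where it was high. No conclusion is drawn from that call. Without treated culture 3 the log2 difference was 1.96 (adjusted p = 0.092). It was 2.30 without control culture 2 (0.07) and 2.21 without control culture 3 (0.0655). With the replicate block it was 2.53 (0.0692). On the log2(FPKM + 1) scale, which understates changes of low genes, limma gave 0.47. Cxcl5 (ENSMUSG00000029371, chromosome 5, 90759360 to 90761624, plus strand) had at most 6 counts in each culture outside the treated group and 4, 7, 40 and 9 counts within it. It did not reach 10 counts in 2 libraries of any comparison and was not tested with the filter. Without a filter edgeR called it in no comparison. Its lowest adjusted p, 0.068, was in treated MYO5BΔIEC against control (log2 difference 2.87). A library with 0 counts allows up to 0.0898 to 0.106 CPM by a limit of 3 counts in the MYO5BΔIEC group, and this limit covers counting error only.

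Cxcl10 (ENSMUSG00000034855, chromosome 5, 92346638 to 92348889, minus strand) encodes an interferon-inducible ligand of CXCR3. The controls held 4.76, 1.99, 2.69 and 1.19 CPM, the MYO5BΔIEC cultures 0.629, 1.11, 1.63 and 2.34 CPM, and the MYO5B(G519R) cultures 0.896, 0.325, 1.52 and 0.392 CPM. The spread within each group was several-fold and the groups overlapped. Cxcl10 fell in MYO5B(G519R) (log2 difference -1.75, SE 0.557, adjusted p = 0.0424), but the call was lost without control culture 1, 2 or 3 or mutant culture 1, 2 or 4 (adjusted p 0.0637 to 0.102), and with limma on log2(FPKM + 1) (-0.64, 0.0587). Without control culture 1 the log2 difference was -1.28. In MYO5BΔIEC the difference of -0.89 ± 0.478 had an adjusted p of 0.189, and it was -0.46 without control culture 1 (adjusted p = 0.438).

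The starts of Ccl20, Cxcl1 and Cxcl10 are shown because these genes carry matches to the 10-base NF-κB consensus within 250 bases upstream, searched on both strands. Such a match was present in 3.9% of 32851 upstream sequences. Among the 8 members with an upstream sequence in the RefSeq table, Ccl9 also had a match, 35 bases before its start, while Ccl6, Ccl25, Ccl28 and Cx3cl1 had none in this window. Capitals mark the match nearest the start, which for Cxcl1 is 2 overlapping matches, at chr1:83116661-83116720 (plus strand), chr5:90891150-90891209 (plus strand) and chr5:92348958-92349017 (minus strand) of GRCm38.p6.
Ccl20: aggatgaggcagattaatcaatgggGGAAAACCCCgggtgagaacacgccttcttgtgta
Cxcl1: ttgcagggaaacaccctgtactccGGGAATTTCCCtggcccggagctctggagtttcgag
Cxcl10: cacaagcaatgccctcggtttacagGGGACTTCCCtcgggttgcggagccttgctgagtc

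Cxcl10 alone of the 8 held the interferon-stimulated response element searched as GAAANNGAAA, found in 2.98% of upstream sequences and marked in capitals in the next stretch, at chr5:92349068-92349127 on the minus strand. The AP-1 motif TGANTCA, found in 6.75%, occurred once before Cxcl10 and once before Ccl9. No matches to different motifs overlapped in these genes, and a match describes the letters only. Cxcl16 and Cxcl5 were not in the sequence table.
Cxcl10: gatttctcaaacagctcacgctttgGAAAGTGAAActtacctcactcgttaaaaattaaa

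Cxcl16 (ENSMUSG00000018920, chromosome 11, 70453983 to 70459984, minus strand) encodes the membrane-anchored ligand of CXCR6, which also takes up oxidized lipoprotein. It was read at 18.8, 24.3, 20.8 and 14.4 CPM in the controls, at 44.4, 40.1, 50.4 and 43.8 CPM in MYO5BΔIEC and at 30.4, 37.8, 46.3 and 46.7 CPM in MYO5B(G519R). Every mutant culture was above every control. Cxcl16 rose 2.29-fold in MYO5BΔIEC (log2 difference 1.19, SE 0.17, adjusted p = 0.00174) and 2.06-fold in MYO5B(G519R) (1.04, SE 0.19, adjusted p = 0.00483). Both calls remained with each culture left out, with log2 differences of 1.07 to 1.32 and of 0.92 to 1.16, and under all other settings tried.

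Part of the Cxcl16 count is uncertain because Zmynd15, on the opposite strand, shares 18.3% of the exon bases of Cxcl16 and the library kit as described does not mark strand. Zmynd15 was much lower, with control cultures at 0.8 ± 0.167 CPM, MYO5BΔIEC at 3.85 ± 0.737, MYO5B(G519R) at 2.96 ± 1.04 and treated enteroids at 9.12 ± 7.77 CPM (SD, n = 4). It moved the same way, by a log2 difference of 2.27 (SE 0.277, adjusted p = 0.00142) in MYO5BΔIEC and of 1.88 (SE 0.308, adjusted p = 0.00339) in MYO5B(G519R). How many reads of either gene come from the other was not tested. For Cxcl10 the overlapping gene Art3 shares 5.91% of exon bases and stood at or below 0.272 CPM in every culture.

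**Figure D3:**
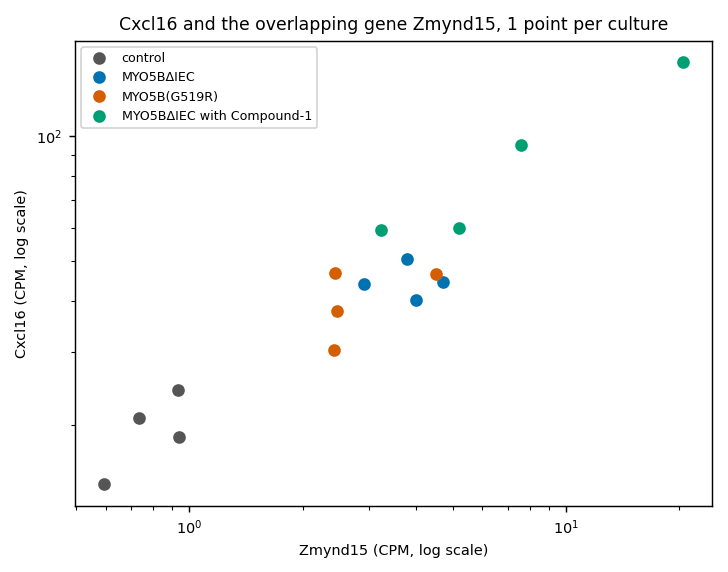
Cxcl16 (y axis, CPM, log scale) against the overlapping gene Zmynd15 (x axis, CPM, log scale) in each of the 16 cultures, coloured by group. Control cultures lie at the lower left, with Cxcl16 up to 24.3 CPM and Zmynd15 up to 0.94 CPM, and treated culture 3 lies at the upper right, at 151 and 20.5 CPM.

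Cx3cl1 (ENSMUSG00000031778, chromosome 8, 94772009 to 94782427, plus strand) encodes fractalkine, the membrane-anchored ligand of CX3CR1 on intestinal macrophages. The controls held 29.2, 19.5, 20 and 21 CPM, the MYO5BΔIEC cultures 44.7, 34.2, 33.8 and 40.9 CPM, and the MYO5B(G519R) cultures 27.2, 28, 41.5 and 39.2 CPM. All MYO5BΔIEC cultures were above all controls, and control culture 1 overlapped with MYO5B(G519R). Cx3cl1 rose 1.72-fold in MYO5BΔIEC (log2 difference 0.79, SE 0.171, adjusted p = 0.00805), a call that remained with each culture left out. In MYO5B(G519R) it rose 1.52-fold (0.60, SE 0.19, adjusted p = 0.0421). That call was lost without control culture 2, 3 or 4 or mutant culture 2, 3 or 4 (adjusted p 0.0507 to 0.115), with the gene length trend removed (0.0703), all 16 cultures in 1 fit (0.0729) and the replicate block (0.0765), and without control culture 1 the log2 difference was 0.78 with an adjusted p of 0.00239.

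The 2 genotypes were also set against each other. No member differed between MYO5B(G519R) and MYO5BΔIEC by edgeR, at an adjusted p under 0.05 or at an unadjusted p under 0.05, and no member was without overlap between the groups. Among all 17943 genes 1 was called (0.00557%; 4 by DESeq2), 772 had an unadjusted p under 0.05, and 1.85% did not overlap. The largest fitted difference among members was that of Cxcl10, at a log2 value of -0.85, and the smallest were those of Cxcl16 and Ccl6, each at -0.15. With each culture left out, Cxcl10 ran from -1.39 to -0.50 and Cxcl16 from -0.22 to -0.034. A missed threshold does not show that the genotypes act alike.

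The comparison of treated with untreated MYO5BΔIEC enteroids asks what Compound-1 changed. By edgeR no gene of 18037 was called (0%), hence no member, while 1355 genes had an unadjusted p under 0.05. DESeq2 called 91 genes and no member. Groups did not overlap for 2 members, Cxcl16 and Ccl20, and for 2.86% of all genes.

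Cxcl16 was read at 59.9, 59.4, 151 and 95.1 CPM in treated cultures and at 40.1 to 50.4 CPM in untreated ones. All treated cultures were higher, by a log2 difference of 1.00 ± 0.264 (SE, unadjusted p = 0.00291, adjusted p = 0.532 by edgeR). Without treated culture 3 the difference was 0.65 with an adjusted p of 0.99. Over the settings that kept all cultures the adjusted p ran from 0.0601 to 0.777.

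Ccl20 values have been given above and differed by 1.04 ± 0.29 on the log2 scale (unadjusted p = 0.00401, adjusted p = 0.532). The lowest treated culture, at 7.77 CPM, was just above the highest untreated one, at 7.71 CPM. Without treated culture 3 the difference was 0.76, and over the settings with all cultures the adjusted p ran from 0.0632 to 0.777. Against control, treated Ccl20 had a log2 difference of 0.47 ± 0.279 and an adjusted p of 0.232, which became 0.18 and 0.629 without treated culture 3.

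The other members had adjusted p-values of 0.62 to 0.992 in this comparison. Cxcl1 had the largest fitted log2 difference, 1.11 ± 0.536 (adjusted p = 0.688), which became 0.51 without treated culture 3. Ccl25 was read at 154, 179, 124 and 158 CPM in treated cultures, a log2 difference from untreated of -0.42 ± 0.171 with an unadjusted p of 0.031. Cx3cl1 was at 36.7, 41.1, 87.3 and 55 CPM, and its difference of 0.49 ± 0.242 became 0.18 without treated culture 3. Ccl28 was at 32.8, 27.4, 11.1 and 25.7 CPM (-0.35 ± 0.278), with treated culture 3 the lowest, and the difference became -0.11 without it. Ccl9, at 14.8, 13.3, 15.1 and 12.6 CPM, differed by 0.07 ± 0.189. Ccl6 held 6.03, 9.46, 13.5 and 11.4 CPM (0.43 ± 0.243), and Cxcl10 held 0.503, 1.94, 2.09 and 0.97 CPM (-0.07 ± 0.5). Without treated culture 3 the differences of Ccl9, Ccl6 and Cxcl10 were 0.03, 0.27 and -0.34.

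Against control the treated enteroids had higher Cxcl16 (4.66-fold, log2 difference 2.22, SE 0.309, adjusted p = 0.00398) and Cx3cl1 (2.46-fold, 1.30, SE 0.271, adjusted p = 0.008). Without treated culture 3 these differences were 1.86 and 0.98, both still called. Cxcl1 was also called, with the limits given above. Ccl9 (log2 difference -2.31, adjusted p = 0.00783), Ccl25 (-1.43, 0.00711) and Ccl28 (-1.37, 0.0103) fell. The 5 calls other than that of Cxcl1 remained with each culture left out. Ccl6 had a difference of -1.14 with an adjusted p of 0.0867, which passed the threshold without control culture 1 (-1.44, adjusted p = 0.00262), with DESeq2 (-1.11, 0.041) and with all 16 cultures in 1 fit (-1.14, 0.0372). Cxcl10 had a difference of -0.95 with an adjusted p of 0.191, and without control culture 1 these were -0.48 and 0.466.

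**Figure D4:**
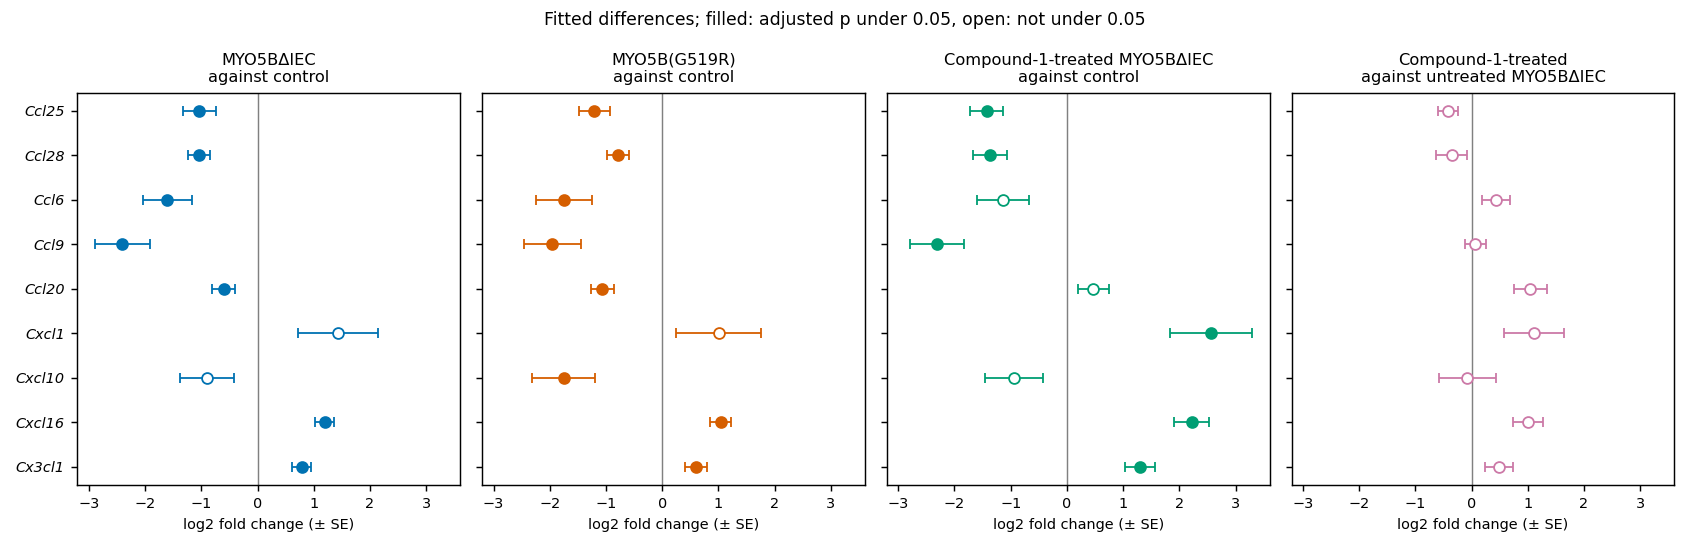
Fitted log2 fold change (x axis) with its standard error for the 9 tested chemokines (rows) in 4 comparisons (panels), filled where the adjusted p of edgeR was under 0.05 and open otherwise. In the 3 panels against control Ccl25, Ccl28 and Ccl9 lie to the left and Cxcl16 and Cx3cl1 to the right with filled points, and in the panel of treated against untreated enteroids every point is open.

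The gene lists and marker lists that follow are read beside all genes tested. Of these, 13.5% were called higher and 13.8% lower in MYO5BΔIEC, and 13.1% and 13.7% in MYO5B(G519R). In treated enteroids against control the shares were 15.7% and 13.7%. The median log2 differences over all genes were -0.01, -0.05 and -0.05 in the same order. Among the machinery that releases, trims and anchors chemokines, 3 of 7 genes rose in MYO5BΔIEC and none fell, with a list median log2 difference of 0.21 beside -0.01 over all genes tested. In MYO5B(G519R) 3 rose and 1 fell (median 0.25 beside -0.05). Rhbdf2, a rhomboid-like protein that escorts ADAM17 to the cell surface, went from 26.9 ± 8.05 CPM in control (SD, n = 4) to 56.3 ± 3.55 in MYO5BΔIEC (log2 difference 1.07, adjusted p = 0.00346) and 49.2 ± 5.02 CPM in MYO5B(G519R) (0.87, adjusted p = 0.00974). Sdc1, a heparan sulfate proteoglycan that holds chemokines at the surface, rose by log2 differences of 0.83 and 0.76 (adjusted p = 0.0095 and 0.00775). The sheddase Adam10 was abundant, at 141 ± 16.9 CPM in control and 162 ± 19.9 CPM in MYO5BΔIEC, and its difference of 0.21 was not called (adjusted p = 0.31).

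Of the 15 genes of NF-κB subunits and inhibitors 5 rose in each genotype and none fell (medians 0.48 and 0.37). Nfkb2, the subunit of the alternative pathway, was at 22.2 ± 6.36 CPM in control and at 50.4 ± 5.14 in MYO5BΔIEC (log2 difference 1.19, adjusted p = 0.00242) and 45.7 ± 4.31 CPM in MYO5B(G519R) (1.04, adjusted p = 0.00439). Tnip1, which restrains the pathway, rose by log2 differences of 1.02 and 0.89 (adjusted p = 0.00175 and 0.00196). Chuk and Nfkb1, the most abundant of the list, had differences of 0.00 and 0.48 in MYO5BΔIEC and were not called (adjusted p = 0.99 and 0.0712). DESeq2 called 8 of the 15 higher in MYO5BΔIEC. With the gene length trend removed 3 were higher in MYO5BΔIEC, and 3 were higher and 2 lower in MYO5B(G519R). In treated against untreated enteroids none of the 15 was called, and the list median was 0.44 beside 0.00 over all genes. Treated enteroids against control had 11 of the 15 higher and none lower (median 0.80 beside -0.05), where 15.7% of all genes were called higher and 13.7% lower.

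Of 21 tested genes for receptors and adaptors upstream of NF-κB, 6 rose and 1 fell in MYO5BΔIEC (median 0.33), and 8 rose and 1 fell in MYO5B(G519R) (median 0.11). The TNF receptor gene Tnfrsf1a rose by log2 differences of 0.89 (adjusted p = 0.00207) and 0.71 (0.00337), and Irak4, a kinase of Toll-like receptor signaling, by 0.67 (0.00496) and 0.51 (0.00833). Ltbr, the lymphotoxin β receptor, had a difference of 0.38 in MYO5BΔIEC that was not called (adjusted p = 0.0715) and rose by 0.39 in MYO5B(G519R) (0.0148). With the gene length trend removed 2 of the 21 were lower in each genotype.

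Of the 16 genes of interferon receptors and signaling 4 rose in each genotype and none fell (medians 0.34 and 0.15). Ifnlr1, the epithelial interferon λ receptor, rose by log2 differences of 1.12 (adjusted p = 0.00335) and 0.95 (0.00835), and the kinase Tyk2 by 0.72 (0.00377) and 0.63 (0.00378). The interferon γ receptor genes Ifngr1 and Ifngr2 had differences of -0.10 and -0.04 in MYO5BΔIEC, neither called (adjusted p = 0.695 and 0.86). Of the interferon-stimulated genes 4 of 13 tested rose in MYO5BΔIEC and none fell (median 1.28), and in MYO5B(G519R) 1 of 12 rose and 1 fell (median 0.80). The MYO5B(G519R) counts are near the shares over all genes, 13.1% higher and 13.7% lower. Tap1, a peptide transporter of antigen presentation, rose by 1.48 (0.00276) and 0.99 (0.0187), and the antiviral gene Oasl2 rose by 1.77 in MYO5BΔIEC (0.021) and had a difference of 1.43 in MYO5B(G519R) that was not called (0.0685). DESeq2 called 7 genes of each of these lists higher in MYO5BΔIEC, and 2 interferon-stimulated genes higher in MYO5B(G519R). Cxcl10, also interferon-inducible, had negative fitted differences in both genotypes.

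Other chemokine ligands were hardly present. Of 28 genes 4 passed the count filter in MYO5BΔIEC against control and none was called by edgeR. The most abundant was Ccl27a, a CCR10 ligand, at 2.95 ± 1.15 CPM in control and 2.23 ± 0.56 CPM in MYO5BΔIEC (log2 difference -0.39, adjusted p = 0.391), followed by Cxcl11 at 0.818 ± 0.395 and 0.892 ± 0.626 CPM. Cxcl13, the B cell attractant with the smallest p of this list, had a difference of -1.03 (adjusted p = 0.248). Ccl2, the monocyte attractant, was picked out after its values were seen. It had 0 counts in all control and MYO5B(G519R) cultures, where 3 counts would be 0.0816 to 0.111 CPM, and at most 1 count in untreated MYO5BΔIEC cultures. In the treated cultures it ranged from 0.0313 to 1.35 CPM. Of 7 ligands tested by edgeR in treated enteroids against control, Ccl2 was the 1 called higher. With 0 counts in control it passed the count filter only through the treated group, so no conclusion is drawn from that call.

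Of 23 chemokine receptor genes 5 passed the filter in MYO5BΔIEC against control and none was called by edgeR, and in MYO5B(G519R) 1 of 4 fell. That gene was Ackr4, a scavenging receptor that removes Ccl25 among other ligands, at 1.02 ± 0.195 CPM in control and 0.471 ± 0.106 CPM in MYO5B(G519R) (log2 difference -1.10, adjusted p = 0.0335). Ccrl2 and Cxcr4 had differences of -0.69 and -1.37 in MYO5BΔIEC (adjusted p = 0.313 and 0.127). The receptors of the members themselves were at or near 0, with no read of Ccr3, Ccr6 or Cxcr3 in any culture and group means of Ccr9 between 0.152 and 0.212 CPM.

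Of the 11 transcription factors of the small intestinal epithelium 3 rose and none fell in MYO5BΔIEC (median 0.42), and 7 rose and 1 fell in MYO5B(G519R) (median 0.39). Klf4, a factor of differentiated and goblet cells, rose by log2 differences of 1.06 (adjusted p = 0.00477) and 0.84 (0.0157). Hnf4a, at 643 ± 23.8 CPM in control, had a difference of 0.34 in MYO5BΔIEC that was not called (0.101) and rose by 0.39 in MYO5B(G519R) (0.0268). Elf3 had a difference of 0.50 that was not called (0.08) and rose by 0.60 in MYO5B(G519R) (0.0437). In MYO5BΔIEC the 3 higher became 5 with DESeq2 and 1 with the gene length trend removed.

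Other cytokines of the epithelium were mixed, with 3 of 13 tested higher and 2 lower in MYO5BΔIEC (median 0.53), and 3 higher and 1 lower in MYO5B(G519R) (median 0.55). Lif, of the interleukin 6 family, went from 6.91 ± 0.997 CPM in control to 22.7 ± 6.69 CPM in MYO5BΔIEC (log2 difference 1.72, adjusted p = 0.00157) and 17.1 ± 3.7 CPM in MYO5B(G519R) (1.31, adjusted p = 0.00222). Csf1, the macrophage growth factor, rose by 2.41 (0.00346) and 1.56 (0.0458) from 0.697 ± 0.415 CPM. Mif fell in MYO5BΔIEC (-0.77, 0.0183) and had a difference of -0.61 in MYO5B(G519R) that was not called (0.0579). Il18 had a difference of -0.72 in MYO5BΔIEC that was not called (0.139) and fell in MYO5B(G519R) (-1.14, 0.0248). In MYO5BΔIEC 5 cytokine genes were higher with DESeq2 or with the gene length trend removed, and in MYO5B(G519R) DESeq2 called 6 higher and 2 lower.

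The cultures were checked against cell type markers. Epithelial markers, led by Krt8, summed to 6350 to 7820 CPM in control. The sums were 9350 to 10300 CPM for MYO5BΔIEC, 8360 to 10700 CPM for MYO5B(G519R) and 10100 to 16200 CPM for treated enteroids, all above control. Against control 4, 3 and 5 of these 6 genes were called higher in MYO5BΔIEC, MYO5B(G519R) and treated enteroids, the groups in which Cxcl16 and Cx3cl1 were higher. Of the 8 macrophage and dendritic cell markers Adgre1 and C1qb had no read in any culture, and the list summed to 4.48 to 5.8 CPM in control and 6.41 to 12.5 CPM in MYO5BΔIEC, where its most abundant gene, Cd68, was called higher (log2 difference 1.10, adjusted p = 0.0332). Lymphocyte markers summed to at most 0.408 CPM, with Nkg7 at 0. Neutrophil markers summed to at most 3.57 CPM, nearly all from Ly6g, with S100a8, Mpo and Elane at 0, and fibroblast markers to at most 0.956 CPM, with Col3a1, Dcn and Lum at 0. Endothelial markers, led by Vwf, summed to at most 2.64 CPM. At these low levels, in MYO5B(G519R) against control, the 1 fibroblast marker tested was called higher (log2 difference 2.39). That gene, Col1a1, was at 0 to 0.16 CPM in control and at 0.178 to 0.462 CPM in MYO5B(G519R). It passed the count filter only through MYO5B(G519R), where it was high, so no conclusion is drawn from that call. Of 3 endothelial markers tested in MYO5B(G519R) against control, 1 was called higher.

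Markers of epithelial lineages were summed as well. Stem cell markers, led by Olfm4, summed to 4190 ± 1630 CPM (SD, n = 4) for control cultures, to 1240 ± 523 for MYO5BΔIEC, to 1750 ± 536 for MYO5B(G519R) and to 1040 ± 490 CPM for treated enteroids. Paneth cell markers, led by Lyz1, summed to 5840 ± 1910, 3440 ± 551, 3170 ± 367 and 3530 ± 590 CPM in the same order. Goblet cell markers, led by Fcgbp, summed to 1720 ± 190, 2230 ± 175, 2170 ± 227 and 3590 ± 1720 CPM. Proliferation markers, led by Top2a, summed to 1480 ± 169, 986 ± 81.1, 1240 ± 130 and 934 ± 255 CPM, and enterocyte markers, led by Sis, to 11200 ± 5510, 9050 ± 3140, 6720 ± 1290 and 5810 ± 1050 CPM. Tuft cell markers, led by Avil, summed to 31.4 ± 22.5, 21.1 ± 3.39, 22.1 ± 1.09 and 20.4 ± 7.41 CPM, and enteroendocrine markers, led by Chgb, to 736 ± 63, 1010 ± 300, 744 ± 136 and 967 ± 541 CPM. The sums follow their most abundant genes, and other members did not always share the direction. Of the 4 stem cell markers Olfm4 alone was called, lower by log2 differences of -2.26 and -1.63 in MYO5BΔIEC and MYO5B(G519R), while Lgr5 had uncalled differences of 0.16 and 0.30 and the list medians were -0.18 and 0.12. Of the 5 goblet cell markers Fcgbp and Clca1 were higher and Spink4 lower in each genotype, and Tff3 was also lower in MYO5B(G519R). Of the 9 enterocyte markers 1, Alpi, was higher and none lower in MYO5BΔIEC (median 0.33), and 1, Sis, was lower in MYO5B(G519R) (median -0.06). In treated enteroids against control 1 was higher and 3 were lower (median -0.50). Of 4 tuft cell markers tested, 2 were lower in treated enteroids against control (median -0.88) and none was called in either genotype. Proliferation markers were lower for 3, 2 and 2 of 4 in MYO5BΔIEC, MYO5B(G519R) and treated enteroids. Paneth cell markers were lower for 2, 2 and 1 of 5. Control culture 1 had the lowest enterocyte sum of all cultures, 3210 CPM, and the highest tuft cell sum, 65 CPM. The other controls had tuft cell sums of 17.9 to 23.1 CPM, within the range of the other groups. The stem cell sum of control culture 1 was 2170 CPM and its Paneth cell sum 3050 CPM, against at least 4080 and 6250 CPM in the other controls. Fewer cells of a type and less RNA per cell cannot be told apart in these bulk libraries, and the part of these shifts in the chemokine differences was not tested.

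**Figure D5:**
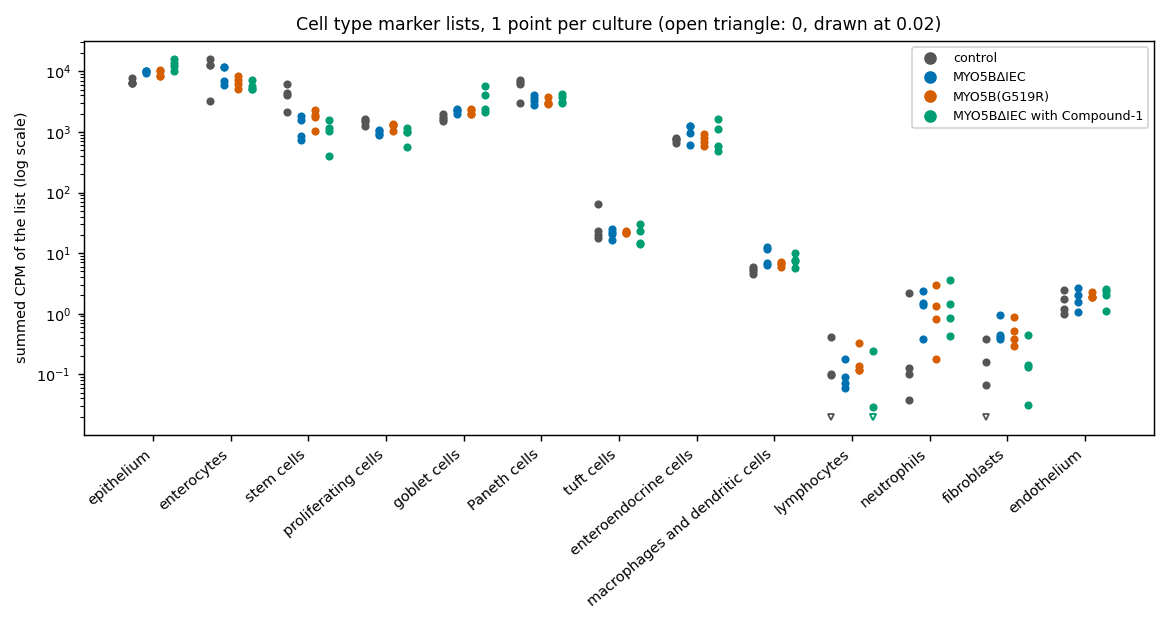
Summed CPM of 13 marker lists (x axis) in each of the 16 cultures (y axis, log scale), coloured by group, with sums of 0 drawn as open triangles at 0.02. Epithelial lineages other than tuft cells lie at 405 CPM or more, while leukocyte, fibroblast and endothelial lists lie at 12.5 CPM or less.

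The genes whose log2 CPM tracked each member most closely over the 16 cultures were ranked among 12003 protein-coding genes. For Cxcl16 they were Slc22a18, Mcu and Ctnnb1 (Pearson r of 0.983, 0.975 and 0.974), and for Cx3cl1 they were Lsr, Pmepa1 and Ick (each 0.972). For Ccl25 they were Gstm4, Gpx4 and Bcap31 (0.98, 0.976 and 0.975), for Ccl28 Nusap1, Tfpi and Fancl (0.968, 0.962 and 0.961), for Ccl9 Mat2b, Mrpl27 and Urod (0.969, 0.968 and 0.964), and for Ccl6 Rnase4, Syf2 and Dnajb6 (0.929, 0.918 and 0.917). Ccl20 had its closest match in Nipal1, Crk and Ubxn2a (0.892, 0.879 and 0.865), and Cxcl10 in Crem, Zfp612 and Hepacam2 (0.852, 0.814 and 0.797). These values describe the libraries, which differ by group and by depth. The top 3 genes of different members did not coincide, but 3 of 12003 genes are too few to show separate patterns. Between members other than Cxcl5 r ran from -0.952 (Ccl28 with Cx3cl1) to 0.914 (Cxcl16 with Cx3cl1).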

How the data were processed

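Poly(A) RNA of the 16 cultures was sequenced by a service provider. Per the study's methods, STAR 2.5 aligned the reads, TopHat parsed the alignments and HTSeq 0.6.1 counted reads per gene. The submitters' processing notes give the build as GRCm38 and also name DESeq2. The deposited counts are whole reads per gene, and the authors also deposited FPKM, which scales each count by depth and gene length. How reads with several mapping positions were handled is not given in the sources used here. Samples were grouped by their labels.

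The test was edgeR 4.0.16 (R 4.3.3) with TMM scaling on genes that reached 10 counts in 2 or more of the 8 libraries, quasi-likelihood F test without covariates, Benjamini-Hochberg adjustment over all genes tested and a threshold of 0.05. CPM used TMM factors over the 16 cultures, and each SE is the log2 fold change divided by the square root of F. On simulated counts for MYO5BΔIEC against control (17951 genes), edgeR called 43 of 100 genes changed 2-fold and 92 of 100 changed 4-fold, with 5 false calls. DESeq2 called 65 and 98, with 39 false calls. Only 100 genes were changed at each fold there, while 4910 genes were called in the data. The adjusted p threshold is stricter when fewer genes change, so these shares do not give the detection rate in the data.

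Named genes were the members, Myo5b, and, per pathway list, the 2 most abundant and the 2 with the smallest p in MYO5BΔIEC against control, plus the 3 most correlated with each member at a mean of 1 CPM or more (log2 CPM, prior count 2). A gene that this rule names is not reported here. Members and lists were chosen with earlier results of these data known. Alternatives were DESeq2 1.42.0, its size factors, no mitochondrially encoded genes in library sizes, removal of the gene length trend, filterByExpr, no filter, all 16 cultures in 1 fit, a replicate block, limma 3.58.1 on log2(FPKM + 1) and log2(FPKM + 0.1), and each culture left out. Overlapping genes and shared 31-base runs were taken from GENCODE vM21, and upstream sequences from RefSeq.

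Replicates were checked for duplicates by chi-square of counts and none was found. In no comparison did the deviations of same-numbered cultures correlate above 0.1 in every pair, so the replicate numbers were not taken to pair the samples. Whether cultures of different groups came from the same mice is not given in the sources used here.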

Additional observations from a re-analysis of the deposited data

Results flagged for a closer look

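Among the 37 sets of 4 cultures tested with Dixon's critical value for a gap, 2 held a culture far from the others, and chance alone sets apart about 1 set in 20. Cxcl5 was at 0.982 CPM in Compound-1-treated culture 3, with 40 counts, and the gap to the next culture was 0.855 of the range of the group. Cx3cl1 was at 29.2 CPM in control culture 1, and the gap was 0.847 of the range. Each culture had the lowest correlation within its group, which for treated culture 3 was close to the others.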

How the results depend on the processing

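In MYO5BΔIEC against control 2 members were called higher under all settings, and 5 lower became 2 with the replicate block, 3 with limma on log2(FPKM + 1) or log2(FPKM + 0.1), and 4 with DESeq2's size factors, gene length trend removed, no filter or all 16 cultures in 1 fit. Leaving out each culture gave 2 to 5 lower members, and 2963 to 7474 genes called in place of 4910. In MYO5B(G519R) against control the 2 higher members became 1 with the gene length trend removed, with all 16 cultures in 1 fit and with the replicate block, and the 6 lower became 3 with limma at a pseudocount of 1 and 4 at 0.1. Leaving out each culture gave 1 to 2 higher and 3 to 5 lower members and 2880 to 8146 genes in place of 4778. Treated against control gave 2957 to 7459 genes in place of 5275 with each culture left out. Treated against untreated gave 91 genes with DESeq2, 12 without a filter and 0 with each culture left out. MYO5B(G519R) against MYO5BΔIEC gave 4 genes with DESeq2, 2 without a filter, 0 with limma at either pseudocount, and 0 to 2 with each culture left out, in place of 1. The highest gene counts against control, 7474, 8146 and 7459, came without control culture 1. The cause of these changes was not tested.

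Signs changed only for small differences and with a culture left out. Treated against untreated, leaving out each culture gave log2 differences of -0.34 to 0.27 for Cxcl10 (main value -0.07), positive without treated culture 1 (0.20) or 4 (0.06) or untreated culture 4, and of -0.023 to 0.22 for Ccl9 (main value 0.07), negative without untreated culture 2 (-0.012) or 3. For Ccl6 in MYO5B(G519R) against MYO5BΔIEC they were -0.36 to 0.036 (main value -0.15), positive without MYO5B(G519R) culture 2.

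Same-numbered cultures had correlations of deviations from -0.228 to 0.142 in MYO5BΔIEC against control and from 0.0691 to 0.571 in MYO5B(G519R) against MYO5BΔIEC. In the latter all 4 pairs were positive and 3 of 4 cultures correlated best with their own number, a hint of pairing from the data and not from the design. There the replicate block raised the genes at an unadjusted p under 0.05 from 772 to 2532 and still called 1. With the replicate block Ccl6, Ccl20 and Ccl25 in MYO5BΔIEC, Cx3cl1 in MYO5B(G519R) and Cxcl1 in treated against control had adjusted p-values of 0.0672, 0.103, 0.0531, 0.0765 and 0.0692, and 3647, 3691 and 4401 genes were called in those comparisons. Cxcl1 and Cxcl5 were close to the detection limit, and Cxcl10 varied several-fold within groups. With 4 cultures per group, edgeR called 43 of 100 genes simulated with a 2-fold change in MYO5BΔIEC against control. Far fewer genes changed in that simulation than the 4910 called in the data, so this share does not carry over to the data.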
